A study of Mus musculus with 29 samples.

Results

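The genes described here are markers of the choroid plexus, the secretory epithelium that hangs in the brain's ventricles, followed through arrays of mouse caudate nucleus. They were chosen by symbol, and each gene is represented by its probe set with the highest mean among those annotated with that symbol alone. Of the 10 genes listed, 9 had such a probe set, of 19938 genes tested on the array. These were Ttr, Kl, Folr1, Clic6, Aqp1, Otx2, Slc4a5, Calml4 and Igf2, each with 1 probe set, and Enpp2, which encodes the secreted enzyme autotaxin, was not analysed here. The purpose was to read from these genes what a dissected piece of tissue held, mouse by mouse, across the study's 6 groups.

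The choroid plexus makes cerebrospinal fluid, and its epithelial cells are joined by tight junctions that separate blood from that fluid. The caudate nucleus, the dorsal part of the mouse striatum, borders the lateral ventricle, in which one of the plexuses lies. Striatal neurons are not known as a source of most of these transcripts, so the genes are commonly used to recognise plexus cells in brain samples. Transthyretin, the product of Ttr, carries thyroid hormone and retinol-binding protein and is among the most abundant transcripts of the plexus epithelium. In tissue of mixed cells, fewer cells of a type and less RNA per cell cannot be told apart.

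The study followed HdhQ150 mice, which model Huntington's disease through a lengthened CAG repeat in their own huntingtin gene, and their wild-type littermates. HdhQ150 groups held 5, 6 and 4 mice at 6, 12 and 18 months, and wild-type groups held 5, 5 and 4 mice at the same ages. All 29 mice were of the mixed 129/Ola x C57BL6/J background, each gave 1 array of total RNA, and the zygosity of the HdhQ150 mice was not stated in the labels. By label, the HdhQ150 groups had 4 females and 1 male at 6 months, 4 females and 2 males at 12 months and 4 females at 18 months, against 3 females and 2 males, 4 females and 1 male, and 4 females in the wild-type groups. Every level below is a log2 RMA value, the authors' background-corrected and normalised summary of a probe set, so that a difference of 1 is a 2-fold difference. Levels of different genes come from different probes and were not set against each other.

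Array medians lay at 6.91 to 7.05, and the correlation of any 2 arrays at 0.918 to 0.992. Of the plexus markers analysed, Ttr and Igf2 alone lay in the upper 50% of all genes by mean level. The others averaged from 5.99 (Calml4) to 6.90 (Clic6), below every array median. How much of their signal was background was not tested, so small steps between arrays in these genes carry that limit. The striatal marker Ppp1r1b, which encodes the dopamine signalling protein DARPP-32, lay between 10.59 and 11.76 on all arrays. Wild-type mouse WT-454 (12 months) correlated with its group at a mean of 0.945, below the 0.975 or more of the other arrays. HdhQ150 mouse 1023 (6 months) is labelled female but had Xist at 5.95 and the Y-linked Eif2s3y at 8.30, where every other mouse labelled female had at least 11.11 and at most 4.05, so these 2 genes go against its label.

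3 arrays stood apart in these genes. They came from HdhQ150 mouse 1017 and wild-type mice WT-1002 and WT-1020, all 6 months old. They were picked out because of these values, so their values are given mouse by mouse and without a test, and the comparisons that include them are given with and without them, by gene or by the count and median of the 9. The next highest arrays, HdhQ150 mouse 383 (18 months) and wild-type mouse WT-454, are named where they matter.

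Ttr, on chromosome 18, had the widest range of the 9 genes. At 6 months it stood at 8.57, 8.35, 8.08, 12.86 and 10.16 in HdhQ150 mice 1001, 1003, 1016, 1017 and 1023, against 12.77, 7.36, 8.74, 7.60 and 12.84 in wild-type mice WT-1002, WT-1004, WT-1011, WT-1018 and WT-1020. At 12 months it ran from 7.89 through a median of 8.84 to 9.55 in the 6 HdhQ150 mice, against 10.08, 7.52, 9.82, 9.31 and 9.31 in wild-type mice WT-454, WT-461, WT-488, WT-508 and WT-527. At 18 months it was 10.72, 9.68, 7.74 and 8.67 in HdhQ150 mice 383, 412, 415 and 426, against 8.30, 9.01, 7.58 and 8.62 in wild-type mice WT-400, WT-401, WT-414 and WT-431. The 3 high arrays were split between the genotypes and limited to the youngest age, and the groups overlapped at every age. An empty stretch of 2.05 (4.15-fold) separated the lowest of these 3, at 12.77, from the next array, mouse 383 at 10.72, and no gap between neighbouring arrays was wider.

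**Figure D1:**
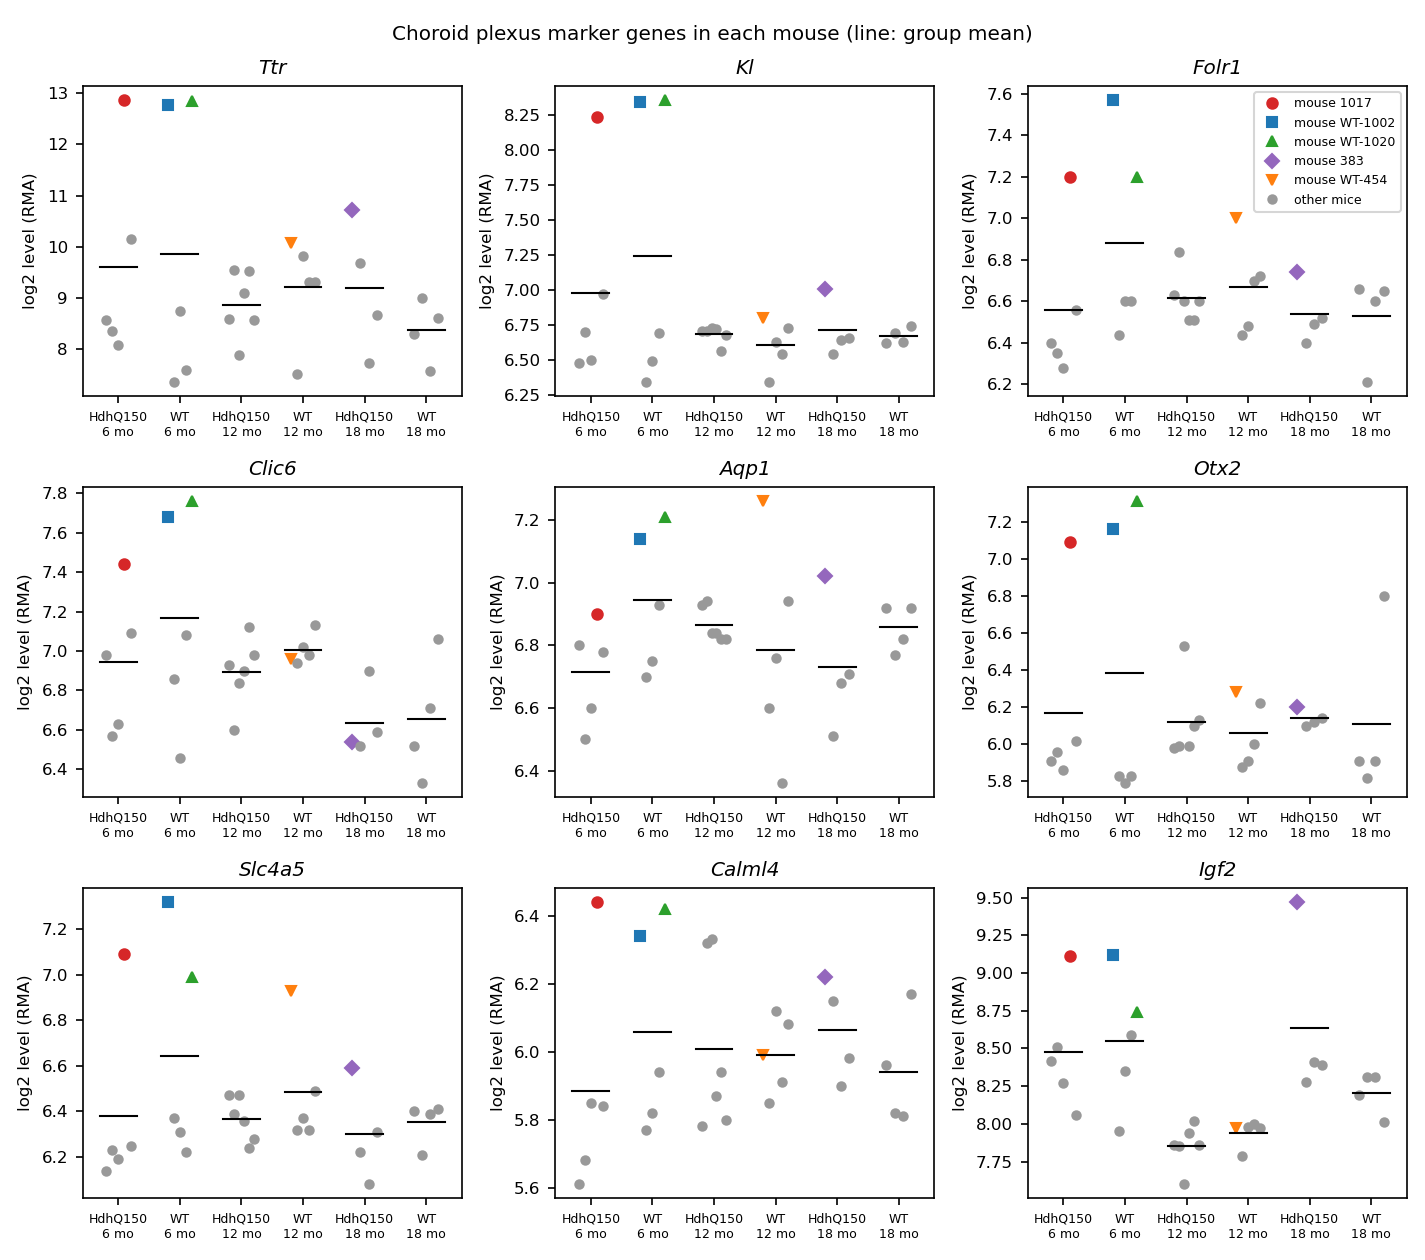
Log2 RMA level of the 9 choroid plexus marker genes (vertical axes) in each mouse, by group (horizontal axes, HdhQ150 left of wild type at each age), with horizontal lines at group means. Ttr in mice 1017, WT-1002 and WT-1020 lies at 12.77 to 12.86, above every other mouse (10.72 or lower), and Igf2 is lowest at 12 months in both genotypes.

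Among the genes of hormone and vitamin handling, Kl encodes klotho, the coreceptor for the hormone FGF23. Kl stood at 6.48, 6.70, 6.50, 8.24 and 6.97 in the 6-month HdhQ150 mice, in the mouse order given for Ttr, against 8.35, 6.34, 6.49, 6.69 and 8.36 in the 6-month wild-type mice. Its remaining levels, at 12 and 18 months, lay between 6.34 and 7.01. The high arrays were again 1017, WT-1002 and WT-1020, with mouse 383 next among the older mice at 7.01. Folr1 encodes folate receptor alpha, which moves folate from blood into cerebrospinal fluid. It was at 6.40, 6.35, 6.28, 7.20 and 6.56 in 6-month HdhQ150 mice, against 7.57, 6.44, 6.60, 6.60 and 7.20 in 6-month wild-type mice. Outside the 3 high arrays Folr1 reached its highest level, 7.001, in WT-454.

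The transporters and channels of fluid secretion were less uniform. Slc4a5 encodes the sodium bicarbonate cotransporter NBCe2 of the plexus epithelium. It was at 6.14, 6.23, 6.19, 7.09 and 6.25 in 6-month HdhQ150 mice, against 7.32, 6.37, 6.31, 6.22 and 6.99 in 6-month wild-type mice, and WT-454 was next at 6.93. Clic6, an intracellular chloride channel family member, was at 6.98, 6.57, 6.63, 7.44 and 7.09 in 6-month HdhQ150 mice, against 7.68, 6.86, 6.46, 7.08 and 7.76 in 6-month wild-type mice. The other 26 arrays reached 7.13 for Clic6, close under the 7.44 of mouse 1017. Aqp1 encodes the water channel aquaporin 1. It stood at 6.80, 6.50, 6.60, 6.90 and 6.78 in 6-month HdhQ150 mice, against 7.14, 6.70, 6.75, 6.93 and 7.21 in 6-month wild-type mice. Its highest level of all, 7.26, was in WT-454, and mouse 1017 did not stand out for it.

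Otx2 encodes a homeobox transcription factor that mouse choroid plexus needs for its development and upkeep. Otx2 was at 5.91, 5.96, 5.86, 7.09 and 6.02 in 6-month HdhQ150 mice, against 7.16, 5.83, 5.79, 5.83 and 7.31 in 6-month wild-type mice. Outside the 3 high arrays, Otx2 was highest at 6.80 in WT-431 (18 months) and 6.53 in HdhQ150 mouse 462 (12 months), 2 mice in which Ttr was at 8.62 and 7.89. High Otx2 in those 2 mice thus came without high Ttr. Calml4, which encodes a protein related to calmodulin, was at 5.61, 5.68, 5.85, 6.44 and 5.84 in 6-month HdhQ150 mice, against 6.34, 5.77, 5.82, 5.94 and 6.42 in 6-month wild-type mice. Here the margin was narrow, since mouse 462 reached 6.33 and the lowest of the 3 high arrays, WT-1002, lay at 6.34.

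Igf2 encodes insulin-like growth factor 2, which in mouse brain is made by the choroid plexus and also by the meninges. It was at 8.42, 8.51, 8.27, 9.11 and 8.06 in 6-month HdhQ150 mice, against 9.12, 7.95, 8.35, 8.59 and 8.74 in 6-month wild-type mice. At 12 months it ran from 7.60 through a median of 7.86 to 8.02 in HdhQ150 mice, against 7.97, 7.79, 7.98, 8.0 and 7.97 in wild-type mice. At 18 months it was 9.47, 8.28, 8.41 and 8.39 in HdhQ150 mice, against 8.19, 8.31, 8.31 and 8.01 in wild-type mice. Its highest level was in mouse 383, not in any of the 3 arrays with the highest Ttr.

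Counted over the set, 7 of the 9 genes (all but Aqp1 and Igf2) had mice 1017, WT-1002 and WT-1020 as their 3 highest arrays. Over all genes, 52 of 19938 (0.261%) did. When each gene was centred on its mean over the 29 arrays and the 9 were averaged, the result was 1.02 in mouse 1017, 1.14 in WT-1002 and 1.07 in WT-1020. It was 0.366 in mouse 383 and 0.228 in WT-454, at most 0.057 in every other mouse, and lowest at -0.400 in WT-1004. The standard deviation of Ttr within groups was 1.59, rank 3 of 19938 genes, against a median of 0.144 over all genes, and the standard deviations of Kl (0.535), Otx2 (0.443) and Igf2 (0.331) ranked 41, 70 and 237. Without the 3 arrays Ttr still ranked 8 (0.890), while Kl fell to rank 7774 (0.158) and Otx2 to rank 1771 (0.225).

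A second list of 38 choroid plexus genes, 34 of them measured, was followed in the same way. It was chosen with earlier results of these data known, so it is not an independent check. The 3 arrays were the 3 highest for 11 of the 34, beside 52 of 19938 (0.261%) over all genes. The 11 were Kcnj13, Sostdc1, F5, Trpv4, Ecrg4, Ace, Abca4, Rdh5, Cab39l, Trpm3 and Lbp. Kcnj13 encodes an inward rectifier potassium channel of the plexus epithelium, and it was at 9.06, 9.19 and 9.27 in mice 1017, WT-1002 and WT-1020, against 6.20 to 7.61 in the other 26. Sostdc1, which encodes a secreted antagonist of BMP and Wnt signals, was at 7.83, 8.59 and 8.25 in those mice, against 6.13 to 7.05. Not every plexus gene followed. Kcne2, a potassium channel subunit, was at 6.45, 6.48 and 6.51 in the same 3 mice, within the 6.23 to 6.93 of the others. Tmem72 followed in part, at 7.07, 7.22 and 7.08, all above the median of the others, 6.58. Their range of 6.33 to 7.21 had its upper end in WT-454.

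Markers of neighbouring tissues were measured on the same arrays, and their part in the levels of the plexus genes was not tested. Of 20 genes of ependyma, the ciliated lining of the ventricle, Ak7 and Rsph4a had the 3 arrays as their 3 highest, and the mean of the list was 0.189, 0.147 and 0.325 in mice 1017, WT-1002 and WT-1020, against -0.141 to 0.178 in the others. Of 10 thalamic neuron genes Ntng1 did, with list means of 0.372, 0.498 and 0.692 against -0.320 to 0.528. For 8 septal neuron genes the means were 0.484, 0.584 and 0.348 against -0.332 to 0.583. In the ranges of both neuron lists the upper end was set by WT-431, the mouse with high Otx2. No gene of the lists for meninges and fibroblasts (20 genes), oligodendrocytes (11), vessels (15), blood (2), striatal projection neurons (14), cortical excitatory neurons (11) or septal neurons had these 3 arrays as its 3 highest. The mean of the striatal list was -0.463 in mouse 1017, 0.00092 in WT-1002 and 0.0125 in WT-1020, within the -0.734 to 0.551 of the others.

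**Figure D2:**
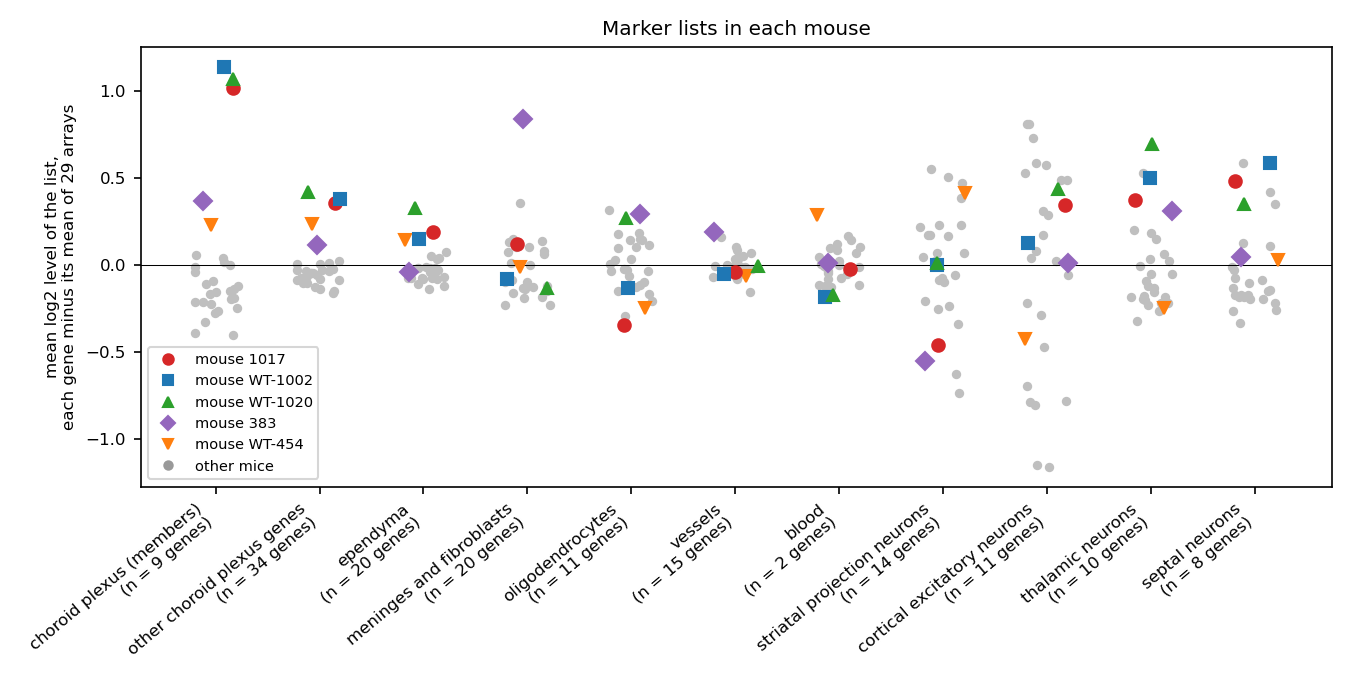
Mean log2 level of each marker list in each mouse (vertical axis), every gene first centred on its mean over the 29 arrays, with lists along the horizontal axis and the number of measured genes under each name; points are mice and the line marks 0. Mice 1017, WT-1002 and WT-1020 lie at 1.02 to 1.14 for the 9 choroid plexus genes, and mouse 383 lies highest, at 0.84, for the genes of meninges and fibroblasts.

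The 15 genes whose levels over the 29 arrays were most like the mean of the 9 were found by Pearson's r, as a description of these arrays. The first 2 were Sostdc1 (r = 0.950) and Kcnj13 (0.931), and Drc7, F5, Lbp, Ecrg4, Slc2a12, Stoml3, Trpm3 and Rsph4a followed with r from 0.895 to 0.802. Dnah9, Rdh5, Lhx9 and Trpv4 and 1 gene without a proper name completed the list, with r of 0.784 to 0.748. 8 of the 15 were on the second plexus list and Rsph4a on the ependymal list. These correlations rest on the 3 arrays, since over the other 26 only 1 of the 15 most alike genes, Sostdc1 (r = 0.713), was shared with this list.

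One gene further down, chosen after its values were seen, was the microRNA gene Mir204 at rank 19 (r = 0.735). The microRNA miR-204 is encoded inside Trpm3, a cation channel gene that was itself among the 15, on chromosome 19 in the GRCm38.p6 assembly. The probe set of Mir204 read 6.74, 6.25 and 6.48 in mice 1017, WT-1002 and WT-1020, against 5.66 to 6.41 in the others, and that of Trpm3 read 8.89, 8.996 and 8.94 against 7.73 to 8.56. Over the 26 arrays r was 0.347. Whether this probe set read the host transcript, the precursor or the mature microRNA was not tested. The mature strands are shown because its host gene was among the 15 genes most like the plexus profile; they are the RefSeq sequences at 19:22750610-22750631 and 19:22750649-22750669, plus strand, with the seed (bases 2 to 8, counted from the 5′ end) in capitals.
mmu-miR-204-5p: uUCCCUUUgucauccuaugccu
mmu-miR-204-3p: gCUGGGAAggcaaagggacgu

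Because Otx2 was one of the genes high in all 3 arrays, the promoters of the set were searched for the core letters bound by OTX2, TAATCC, on both strands in the 250 bases before each RefSeq start. 6 of the 10 listed genes were in the promoter table, with 12 starts. 1 of the 12 starts (8.33%) held the letters, against 2054 of 32851 starts of all genes (6.25%). The match belonged to a start of Otx2 itself and lay at position -211 from it, written on the other strand as GGATTA. The window is shown, in GRCm38.p6 at chr14:48665110-48665359 on the minus strand, with the match in capitals, because it was the one match among these genes. A match is letters in a window and says nothing of binding.
Otx2: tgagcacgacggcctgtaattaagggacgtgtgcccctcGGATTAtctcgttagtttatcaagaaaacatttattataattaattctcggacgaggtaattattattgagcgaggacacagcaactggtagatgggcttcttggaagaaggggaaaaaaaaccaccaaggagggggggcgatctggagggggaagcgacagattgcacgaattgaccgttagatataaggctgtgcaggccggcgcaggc

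Whether these genes moved together in single mice was asked by setting each of 8 genes against Ttr. Since the arrays fell into 3 high ones and 26 others, r was taken over the 26 alone, with permutation tests (two-sided, 100000 permutations) adjusted by Benjamini-Hochberg over the 8 pairs. Kl was the 1 gene of 8 that passed, with r = 0.591 (adjusted p = 0.00904) and Spearman's rho = 0.462 (adjusted p = 0.0868). For the other 7, r was 0.386 for Calml4, 0.378 for Folr1, 0.374 for Slc4a5, 0.279 for Aqp1, 0.201 for Otx2, 0.199 for Igf2 and -0.0062 for Clic6. Without mice 383 and 1023, the 2 farthest from the median of Ttr, the r of Kl was 0.374 (permutation test, adjusted p = 0.208), so the relation rested on those 2 mice. Within ages, Kl had r = 0.715 at 6 months without the 3 high arrays (n = 7), 0.459 at 12 months (n = 11) and 0.625 at 18 months (n = 8), with adjusted permutation p of 0.286, 0.407 and 0.301. Among the other 7, Igf2 at 12 months alone passed in these age sets (r = 0.78, permutation test, adjusted p = 0.0322). By rho it did not pass there (rho = 0.645, permutation test, adjusted p = 0.299).

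**Figure D3:**
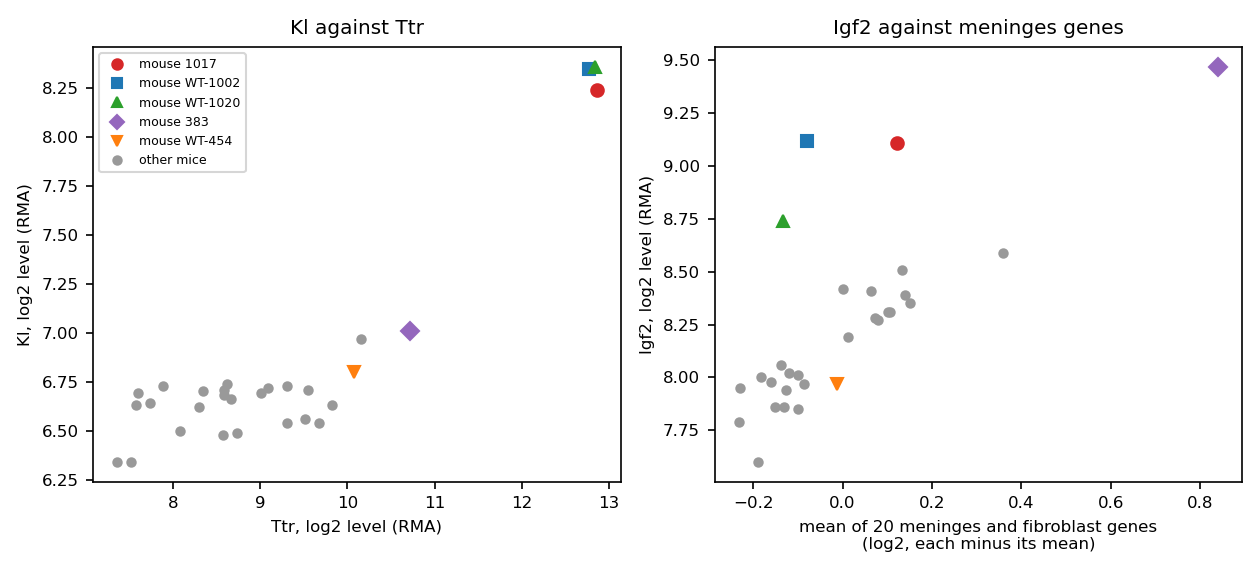
Left, log2 level of Kl (vertical axis) against that of Ttr (horizontal axis); right, log2 level of Igf2 against the mean of 20 meninges and fibroblast genes, each centred on its mean over the 29 arrays. Points are mice; on the left mice 1017, WT-1002 and WT-1020 form a cluster of their own at 12.77 or more in Ttr, and on the right mouse 383 lies at 0.84 with Igf2 at 9.47.

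The comparison of HdhQ150 with wild-type mice asked whether the genes differed by genotype at each age. A linear model across all genes (limma, 6 group means and labelled sex) was used, with p adjusted over 19938 genes by Benjamini-Hochberg and a gene called at an adjusted p under 0.05. At 6 months 0 of the 9 genes were called, and 0 had an unadjusted p under 0.05, where 0.0251% of all genes were called (5 of them, with 2738 at an unadjusted p under 0.05). Ttr averaged 9.61 ± 1.99 in HdhQ150 mice and 9.86 ± 2.74 in wild-type mice (SD, n = 5 each), which differed by -0.24 (SE 0.907, limma adjusted p = 0.94). The 9 differences were all negative, between -0.29 for Folr1 (SE 0.169, limma adjusted p = 0.449) and -0.074 for Igf2 (SE 0.193, limma adjusted p = 0.909). Their median was -0.222, beside 0.00623 over all genes.

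That common sign depended on how the 3 high arrays were divided, 1 in the HdhQ150 and 2 in the wild-type group. Without them the median of the 9 was 0.00084, beside -0.0136 over all genes, and 5 of 9 differences were positive. Ttr then differed by 0.90 (SE 0.598, limma adjusted p = 0.935), Kl by 0.157, Otx2 by 0.119, Igf2 by 0.014 and Clic6 by 0.00084, while Folr1 (-0.137), Aqp1 (-0.114), Calml4 (-0.100) and Slc4a5 (-0.080) stayed below 0. None of the 9 was called in either form of the comparison, and Ttr's 95% interval with all arrays, -2.09 to 1.62, leaves room for large differences either way.

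**Figure D4:**
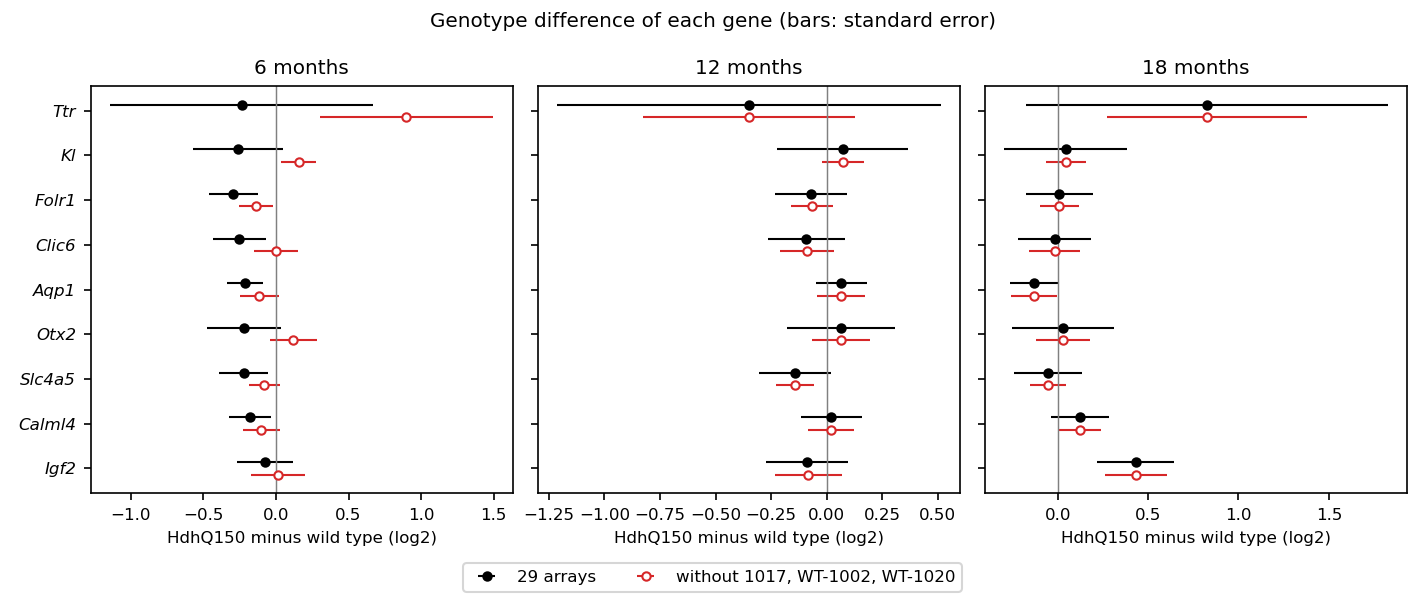
HdhQ150 minus wild-type difference of each choroid plexus marker gene (horizontal axes, log2) at 6, 12 and 18 months, with bars of 1 standard error; filled points use 29 arrays and open points leave out mice 1017, WT-1002 and WT-1020. At 6 months Ttr lies at -0.24 with all arrays and at 0.90 without the 3, and the open and filled points nearly coincide at 12 and 18 months.

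At 12 months 0 of the 9 genes were called and 0 had an unadjusted p under 0.05, where 0.938% of all genes were called. Ttr averaged 8.87 ± 0.64 (SD, n = 6) in HdhQ150 mice and 9.21 ± 1.001 (SD, n = 5) in wild-type mice, which differed by -0.35 (SE 0.863, limma adjusted p = 0.992). The other differences lay between -0.14 for Slc4a5 and 0.071 for Kl, with a median over the 9 of -0.0704. At 18 months 0 of the 9 were called and 0 had an unadjusted p under 0.05, where 0.135% of all genes were called. Ttr averaged 9.20 ± 1.28 in HdhQ150 mice and 8.38 ± 0.61 in wild-type mice (SD, n = 4 each), which differed by 0.82 (SE 1.002, limma adjusted p = 0.993). Igf2 averaged 8.64 ± 0.56 in HdhQ150 mice and 8.21 ± 0.14 in wild-type mice (SD, n = 4 each), which differed by 0.43 (SE 0.213, limma adjusted p = 0.863). Without mouse 383 the difference was 0.32 for Ttr and 0.15 for Igf2. The 3 high arrays enter this comparison only through the shared variance. Without them the difference of Igf2 stayed at 0.43 with an SE of 0.173. Igf2 was then at an unadjusted p under 0.05 and was not called (limma adjusted p = 0.701). The remaining 7 genes differed by -0.13 (Aqp1) to 0.12 (Calml4) at 18 months, and the groups overlapped for every gene at every age.

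In the second plexus list 1 gene was called by genotype. Car12, which encodes the membrane-bound carbonic anhydrase 12, fell in HdhQ150 mice by 0.57 at 12 months (SE 0.103, limma adjusted p = 0.00258) and by 0.62 at 18 months (SE 0.119, limma adjusted p = 0.0196). Car12 was not one of the genes highest in the 3 arrays. At 6 months 0 of the 34 genes of that list were called, with a median of -0.0976 on all arrays and -0.0259 without the 3. Of the other lists, that of striatal projection neurons held called genes, all lower in HdhQ150 mice: Penk, Pde10a, Gpr6, Scn4b and Adcy5 at 12 months, and Penk, Pde10a, Gpr6 and Scn4b at 18 months.

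Whether the genotype difference itself changed with age was tested as an interaction in the same model. For 12 minus 6 months 0 of the 9 genes were called (limma adjusted p from 0.812 to 0.996), where 0.00502% of all genes were called. For 18 minus 12 months 0 of the 9 were called (limma adjusted p = 0.9999 for each), where 0% of all genes were called and 412 had an unadjusted p under 0.05. For 18 minus 6 months 0 of the 9 were called (limma adjusted p from 0.64 to 0.904), where 0% of all genes were called and 1629 had an unadjusted p under 0.05. On all arrays no member had an unadjusted p under 0.05 in any of these 3 tests. The signs again depended on the 3 high arrays. For 12 minus 6 months the median of the 9 was 0.202 with 7 of 9 positive on all arrays, and -0.0616 with 3 of 9 positive without the 3. For 18 minus 6 months it was 0.301 with 9 of 9 positive on all arrays, and -0.0163 with 4 of 9 positive without them. None of the 9 was called without the 3 arrays (limma), and Igf2 for 18 minus 12 months was then the 1 member at an unadjusted p under 0.05 (limma adjusted p = 0.9999).

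Between ages, Igf2 was the 1 gene of the 9 called on all arrays, and each of its calls depended on single mice, as given below. The comparisons of a genotype share the arrays of the age they have in common. In HdhQ150 mice Igf2 averaged 7.86 ± 0.14 at 12 months (SD, n = 6) and 8.47 ± 0.40 at 6 months (SD, n = 5), lower by 0.62 on the log2 scale at 12 months (difference -0.62, SE 0.183, limma adjusted p = 0.015). It was the 1 of 9 genes called there, where 23.1% of all genes were called. Without the 3 high arrays the difference was -0.45 (limma adjusted p = 0.041), and without mouse 1017 alone it was -0.46 (limma adjusted p = 0.062). At 18 months Igf2 averaged 8.64 ± 0.56 in HdhQ150 mice (SD, n = 4), against 7.86 ± 0.14 at 12 months (SD, n = 6), higher by 0.79 (SE 0.200, limma adjusted p = 0.015). It was again 1 of 9 called, where 5.79% of all genes were called, and without mouse 383 the difference was 0.51 (limma adjusted p = 0.0902). Every HdhQ150 mouse at 18 months and at 6 months had more Igf2 than every HdhQ150 mouse at 12 months. The margin to 6 months was narrow, with 8.06 in mouse 1023 against 8.02 in mouse 487 at 12 months. How many of all genes separate in this way was not counted. For 18 minus 6 months in HdhQ150 mice 0 of the 9 were called and 0 had an unadjusted p under 0.05 (limma adjusted p from 0.392 to 0.99), where 4.65% of all genes were called.

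In wild-type mice Igf2 averaged 7.94 ± 0.08 at 12 months and 8.55 ± 0.44 at 6 months (SD, n = 5 each), lower at 12 months by 0.61 on the log2 scale (difference -0.61, SE 0.193, limma adjusted p = 0.022). It was 1 of 9 called, where 25.7% of all genes were called. Kl was also at an unadjusted p under 0.05 there (difference -0.63, limma unadjusted p = 0.0499, adjusted p = 0.128), as were 7779 of all genes. Without the 3 high arrays the difference of Igf2 was -0.36 (limma adjusted p = 0.201), without WT-1002 -0.47 (limma adjusted p = 0.0766) and without WT-1020 -0.55 (limma adjusted p = 0.065), so the call rested on those mice. For 18 minus 12 months 0 of the 9 were called and 0 had an unadjusted p under 0.05 (limma adjusted p from 0.367 to 0.975), where 5.87% of all genes were called. Igf2 differed by 0.27 there (SE 0.204, limma adjusted p = 0.638). Every wild-type mouse at 18 months nevertheless had more Igf2 than every wild-type mouse at 12 months, so this separation was not limited to HdhQ150 mice. The margin was narrow, with 8.01 in WT-431 against 8.0 in WT-508. Between 6 and 12 months the wild-type groups overlapped for Igf2. For 18 minus 6 months 0 of the 9 were called (limma adjusted p from 0.087 for Clic6 to 0.836) and 1, Clic6, had an unadjusted p under 0.05, where 6.27% of all genes were called.

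The age differences of the other genes turned with the 3 high arrays in both genotypes. In HdhQ150 mice the median of the 9 for 12 minus 6 months was -0.0386 with 3 of 9 positive on all arrays, and 0.150 with 8 of 9 positive without the 3. For 18 minus 6 months in HdhQ150 mice it was -0.0312 with 4 of 9 positive on all arrays, and 0.170 with 8 of 9 positive without them. The 3 arrays include 1 HdhQ150 and 2 wild-type mice of 6 months. In wild-type mice, for 12 minus 6 months, the median of the 9 was -0.190 with 0 of 9 positive on all arrays, and 0.144 with 8 of 9 positive without the 3. For 18 minus 6 months in wild-type mice it was -0.292 with 0 of 9 positive on all arrays, and 0.0994 with 7 of 9 positive without the 3. In wild-type mice Ttr differed by -0.63 (12 minus 6 months) and -1.44 (18 minus 6 months) on all arrays, and by 1.32 and 0.51 without the 3. Kl differed by -0.63 and -0.56 on all arrays, and by 0.105 and 0.172 without them. Clic6 differed by -0.19 and -0.56 on all arrays, and by 0.181 and -0.195 without them. No call of Ttr, Kl or Clic6 was made in any of these comparisons at the stated threshold.

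Because Igf2 is also made by the meninges, each of the 9 genes was set against the mean of 20 markers of meninges and fibroblasts, a relation looked for after the Igf2 values were seen. Over the 29 arrays Igf2 had r = 0.73 and rho = 0.735 with that mean (permutation test, adjusted over 9 genes, p = 0.0009 and 0.00018). The meningeal mean was itself lowest at 12 months, at -0.136 in HdhQ150 and -0.135 in wild-type mice. It was 0.0388 and 0.0131 at 6 months and 0.279 and 0.0298 at 18 months. Cortical excitatory markers were also lowest at 12 months (-0.75 and -0.448), and striatal projection neuron markers were highest (0.167 and 0.464). The part of such age differences in the levels of Igf2 was not tested. Without mice 383 and WT-1018, the 2 farthest on the meningeal measure, the r of Igf2 was 0.571 (permutation test, adjusted p = 0.0157). Within ages r was 0.274 at 6 months (n = 10), 0.452 at 12 months (n = 11), 0.993 at 18 months (n = 8) and 0.907 at 18 months without mouse 383 (n = 7), with adjusted permutation p of 0.663, 0.252, 0.0117 and 0.0908. By Spearman's rho the 18-month relation did not pass, with rho = 0.738 (permutation test, adjusted p = 0.411), and without mouse 383 neither measure passed. For the other 8 genes r over 29 arrays lay between -0.36 and 0.116. At 12 months, however, 5 of these 8 passed by r and Igf2 did not: Aqp1 (r = 0.83), Folr1 (0.764), Ttr (0.745), Kl (0.733) and Slc4a5 (0.70), with adjusted permutation p of 0.0225 for the first 3, 0.0315 for Kl and 0.0488 for Slc4a5. By rho at 12 months, Aqp1 alone of the 9 passed (rho = 0.827, permutation test, adjusted p = 0.0238). By r at 12 months, the relation to the meningeal genes was therefore not limited to Igf2. Among 12-month mice WT-454 had the highest meningeal mean, -0.013, and the highest level of each of the 5 genes that passed by r. The correlations without WT-454 were not computed, so how far they rest on that mouse was not tested.

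Mouse 383 and the 3 high arrays differed in their meningeal genes. The meningeal mean of mouse 383, 0.84, was the highest of all mice, where mice 1017, WT-1002 and WT-1020 had 0.121, -0.0805 and -0.134. Ogn, which encodes the matrix protein osteoglycin, was at 8.22 in mouse 383 and at 6.34, 6.31 and 6.58 in those 3 mice, and Dcn, which encodes decorin, was at 9.44 in mouse 383 and at 8.26, 8.03 and 8.12 in the 3. Slc13a4, a sulfate transporter of the plexus list, was also highest in mouse 383, at 8.78, against 7.90, 7.70 and 7.75 in the 3. Not every gene of the meningeal list was highest in mouse 383. Col1a1 (8.05), Col1a2 (8.08) and Col3a1 (7.48) were highest in WT-454. Mouse 383 thus combined the highest meningeal mean and the highest Igf2 with Ttr at 10.72. The 3 high arrays combined the highest Ttr, Kl, Otx2 and Kcnj13 with a meningeal mean inside the range of the other mice.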

How the data were processed

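Total RNA of the caudate nucleus of 29 mice was hybridised to Affymetrix arrays, 1 per mouse. The values are log2 expression levels deposited by the authors, for which the submitters' processing notes name RMA and Affymetrix Expression Console, without versions or options. Of 35556 probe sets, 21789 carried 1 gene symbol, 1621 several and 12146 none; 19938 genes were kept, each by its probe set of highest mean, 21698 probe sets being named through Entrez identifiers in RefSeq and 91 keeping the array's name. The array's genome build is not given; positions and sequences are those of RefSeq (GRCm38.p6).

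Groups came from the labels. The model for all differences was fitted by limma 3.58.1 (R 4.3.3) (6 group means, labelled sex, variance trend; 22 residual degrees of freedom), with Benjamini-Hochberg adjustment over 19938 genes and a threshold of 0.05; the same fit was tested on simulated data. Mice are separate animals, and their number limits precision. No column was left out. The genes named are the listed markers, called genes of the marker lists, the first genes of each list and the 15 genes most alike. Members and lists were chosen with earlier results of these data known. Alternatives covered the sex term, females alone, mouse 1023 as male, mouse WT-454, array weights, variance settings, centring, probe set choice and each mouse left out; leaving out 1017, WT-1002 and WT-1020 together was chosen after seeing the data.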

Additional observations from a re-analysis of the deposited data

Results flagged for a closer look

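In 54 combinations of a gene and a group the highest or lowest mouse was compared with its group. Of these, 13 had a mouse far from the others by Dixon's criterion. For independent tests of normal values chance gives about 1 in 20. The 54 tests were not independent, since the same arrays were read for each gene and some mice were flagged in several genes. The share over all genes was not counted, so whether 13 is more than other genes would give was not tested. 4 of the 13 belong to HdhQ150 mouse 1017 at 6 months, with Kl at 8.24 (the others 6.48 to 6.97), Otx2 at 7.09 (5.86 to 6.02), Slc4a5 at 7.09 (6.14 to 6.25) and Calml4 at 6.44 (5.61 to 5.85). Wild-type mice WT-1002 and WT-1020 lie together in their group, and this criterion does not pick out a pair.

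Igf2 was far from its group in HdhQ150 mouse 383 at 18 months, at 9.47 (the others 8.28 to 8.41), and in wild-type mouse WT-461 at 12 months, at 7.79 (7.97 to 8.0). Otx2 was far in wild-type mouse WT-431 at 18 months, at 6.80 (5.82 to 5.91), and in HdhQ150 mouse 462 at 12 months, at 6.53 (5.98 to 6.13). Folr1 was far in HdhQ150 mouse 453 at 12 months, at 6.84 (6.51 to 6.63), and low in wild-type mouse WT-401 at 18 months, at 6.21 (6.60 to 6.66). Slc4a5 was low in WT-401 as well, at 6.21 (6.39 to 6.41), and high in wild-type mouse WT-454 at 12 months, at 6.93 (6.32 to 6.49). Kl was low in HdhQ150 mouse 487 at 12 months, at 6.56 (6.68 to 6.73).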

How the results depend on the processing

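No paired analysis was possible because the mouse numbers are not shared between groups. In the 6 genotype and interaction comparisons the number of the 9 genes called stayed at 0 under each alternative run. Of these runs, that on the upper 50% of genes by mean held only Ttr and Igf2 of the 9. The choice of the lowest-mean probe set left the values of the 9 unchanged, since each had 1 probe set. These runs could therefore say little of the 9. For wild type, 12 minus 6 months, it was 0 among females alone and 0 without the 3 high arrays, and leaving out 1 mouse gave 0 to 2 (2 with Kl at -0.85 without WT-1004 and -0.84 without WT-1011). For wild type, 18 minus 6 months, it was 1 with array weights (Clic6, -0.63, limma adjusted p = 0.0309), and leaving out 1 mouse gave 0 to 1 (Clic6 at -0.80 without WT-1011). Leaving out 1 mouse gave 0 to 1 for HdhQ150 12 minus 6 months (0 without 1017) and 0 to 1 for HdhQ150 18 minus 12 months (0 without 383). Of 8 genes set against Ttr, 8 passed by r on all arrays, which fall into clusters. Without the 3, 1 passed (Kl), and 1 (Kl) without them after removing group means. Leaving out the next 2 as well, 0 passed. Within ages 1 passed at 12 months (Igf2), 0 at 18 months and 0 at 6 months without the 3.

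Genotype differences that turned in sign were all of uncalled genes. At 6 months Ttr was 0.191 among females alone, Igf2 was 0.024 without WT-454 and 1023, and without the 3 arrays Ttr was 0.90, Kl 0.157, Clic6 0.00084, Otx2 0.119 and Igf2 0.014. At 12 months Calml4 was -0.0041 among females alone and -0.0061 with array weights, and Folr1 was 0.0051 without WT-454 and 0.0046 without WT-454 and 1023. At 18 months Folr1 was -0.037 and Clic6 0.029 with array weights. Of the age differences given by gene, those that turned without the 3 arrays were, in wild type, Ttr 1.32, Kl 0.105 and Clic6 0.181 (12 minus 6 months), and Ttr 0.51 and Kl 0.172 (18 minus 6 months). Over the 9 genes the number positive without the 3, against all arrays, was 8 against 0 (12 minus 6 months) and 7 against 0 (18 minus 6 months) in wild type, and 8 against 3 and 8 against 4 in HdhQ150 mice. Leaving out 1 mouse turned values within these ranges: at 6 months Ttr -1.02 to 0.63, Kl -0.57 to 0.065, Otx2 -0.44 to 0.046 and Igf2 -0.23 to 0.061; at 12 months Aqp1 -0.034 to 0.21, Calml4 -0.048 to 0.070, Folr1 -0.12 to 0.0051 and Otx2 -0.026 to 0.15; at 18 months Clic6 -0.12 to 0.12, Folr1 -0.097 to 0.056, Kl -0.054 to 0.10, Otx2 -0.066 to 0.26 and Slc4a5 -0.15 to 0.019; by age, Igf2 in HdhQ150 18 minus 6 months -0.11 to 0.34 and Ttr in wild type 12 minus 6 months -1.27 to 0.24. The cause was not tested. Over all genes the 6-month genotype count of 5 was 1330 with array weights, 188 without 1023 and 1 without the 3; the wild-type counts without the 3 were 2373 for 5121 (12 minus 6 months) and 316 for 1250 (18 minus 6 months). Over every alternative the count ran from 103 to 656 around 187 for genotype at 12 months and from 1 to 43 around 27 at 18 months; by age it ran from 2702 to 7098 around 4599, 582 to 2171 around 1154 and 421 to 2489 around 927 in HdhQ150 mice (12 minus 6, 18 minus 12 and 18 minus 6 months), and from 2373 to 7434 around 5121, 696 to 2027 around 1171 and 248 to 2437 around 1250 in wild-type mice. The interaction counts of 1, 0 and 0 reached at most 2, 0 and 6.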
